A study of Mus musculus with 4 samples.

Results

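Csf1, Il34 and Csf1r are 3 of the 32285 genes counted in a spatial transcriptome of mouse brain after photothrombotic (PT) injury, in which light and a photosensitive dye clot cortical vessels. They were chosen as a ligand and receptor set: both ligands and the receptor they share. All 3 had unique molecular identifiers (UMIs, each tagging 1 captured polyA RNA molecule) in all 8 brain slices. Each slice came from 1 mouse, and 4 Visium capture areas held 2 slices each. One area held a wild-type (WT) slice at rest and another taken 2 days post injury (dpi). A pair of WT slices at 7 dpi lay on the next area and a pair of WT slices at 21 dpi on a further one. The remaining area carried 2 slices of Cthrc1(creER); R26(DTA) mice, here called deleter mice, also taken at 21 dpi. In these, CreER made from the Cthrc1 locus switches on diphtheria toxin in cells that express Cthrc1, a gene of profibrotic myofibroblasts, after tamoxifen. The study left these 2 deleter mice out of its spatial data, because no deletion could be detected. In other deleter mice it reported larger lesions and less lesional matrix, and called these effects modest. In fibrotic spots of the WT slices at 21 dpi, Cthrc1 was at 0.219 and 0.175 UMIs per 10000 (49 and 50 UMIs). In those of the deleter slices it was at 0.101 and 0.132 (26 and 48 UMIs). These counts are small, no test of Cthrc1 is given here, and no deletion is read from them. Sex, age and tamoxifen schedule of single mice were not in the labels.

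Colony-stimulating factor 1 (encoded by Csf1) and interleukin-34 (encoded by Il34) are unrelated in sequence but bind the same receptor tyrosine kinase, encoded by Csf1r. Signalling through the receptor keeps microglia and many macrophages alive and can drive their division. In the adult forebrain Il34 is known mainly from neurons, Csf1 from glia and from cells at sites of injury, and Csf1r from microglia and macrophages. Spots on the array cover several cells, so fewer cells of a type and less RNA per cell could not be told apart.

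A spot was called fibrotic when at least 5 of each 10000 of its UMIs were from Col1a1, which encodes a chain of type I collagen; meningeal spots can meet this rule. Adjacent spots lay 1 to 2 array steps from a fibrotic spot and distant spots 5 or more. Total UMIs per slice ranged from 11332780 to 23677298, and median UMIs per spot from 12447 to 16158, except at 2 dpi, where the median was 2633.5 and 21.7% of spots held under 1000 UMIs. The slice at rest had 3 fibrotic spots and the slice at 2 dpi had 26, of which 19 rested on under 3 Col1a1 UMIs, so fibrotic spots were compared only at 7 and 21 dpi. These held 112 and 392 fibrotic spots at 7 dpi, 170 and 203 at 21 dpi, and 193 and 274 in the deleter slices. Of the 112 in the first slice at 7 dpi, 19 also rested on under 3 Col1a1 UMIs, against at most 4 in each other slice at these times. The median depth of those 112 spots was 4923.5 UMIs. Xist, transcribed from an inactive X chromosome, had 1597 and 1281 UMIs in the slices at 7 dpi but 4 and 1 in the WT slices at 21 dpi, where the Y-linked gene Ddx3y had 1195 and 805. In the comparison of 7 with 21 dpi, time, sex and capture area therefore cannot be told apart. The slices at rest and 2 dpi also had Xist (1118 and 1013 UMIs) and shared an area apart from all later slices. Folds of later slices over rest therefore cannot be told apart from area, nor from sex where a slice had Y-linked transcripts.

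Csf1 (ENSMUSG00000014599) lies on the minus strand of chromosome 3, at chr3:107741048-107760469 in GRCm38. Of the 3 members, only Csf1 had a promoter sequence to hand, so only its promoter is shown. The 300 bases from 250 before to 50 after the start (RefSeq, GRCm38.p6, chr3:107760420-107760719, minus strand) are printed 5′ to 3′, with the match to an NF-kB motif in capitals.
Csf1 promoter: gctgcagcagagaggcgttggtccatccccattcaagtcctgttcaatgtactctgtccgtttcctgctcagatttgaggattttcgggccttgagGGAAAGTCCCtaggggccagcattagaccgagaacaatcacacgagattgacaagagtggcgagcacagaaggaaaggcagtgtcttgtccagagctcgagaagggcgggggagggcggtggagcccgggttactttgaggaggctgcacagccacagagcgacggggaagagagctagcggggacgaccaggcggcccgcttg
GC content of this window was 58.7%. The NF-kB motif GGGNNNTTCC, searched on both strands, had 1 match, 154 bases before the start, and 5.56% of the 32851 mouse promoters of this length held it. The AP-1 motif TGANTCA and the PU.1 motif GAGGAA had 0 matches in these letters, against 7.81% and 28.3% of promoters with a match. No measurement here bears on binding at these letters.

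Il34 (ENSMUSG00000031750) lies at chr8:110741829-110805924 in GRCm38, on the minus strand. Csf1r (ENSMUSG00000024621) lies at chr18:61100598-61132149, on the plus strand.

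Over whole slices, both Csf1 and Csf1r were lowest at rest and highest in the 2 slices at 7 dpi, while Il34 varied less. Csf1 was at 0.116 UMIs per 10000 at rest (190 UMIs, exact Poisson 95% interval 0.1002 to 0.1339) and 0.364 at 2 dpi. It was at 0.685 and 0.921 at 7 dpi, 0.429 and 0.484 at 21 dpi, and 0.397 and 0.268 in the deleter slices. Every injured slice was therefore above rest, by 2.31 to 7.93 times, and the slices at 7 dpi were above all others. Slices also differed in how much lesion they held. Fibrotic spots made up 0.295% of spots at rest, 1.51% at 2 dpi, 11.5% and 41.4% at 7 dpi, and 12.7% and 24.5% at 21 dpi. In the deleter slices they made up 21.2% and 17.2%. The part of this share in whole-slice levels was not tested. Poisson intervals cover counting error only, and there was 1 slice at rest and 1 at 2 dpi, so neither was tested against other times. The intervals of the slice at 2 dpi and the first deleter slice overlapped, as did those of the first deleter slice and the first slice at 21 dpi, and those of both WT slices at 21 dpi.

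Csf1r was at 0.334 UMIs per 10000 at rest (546 UMIs, interval 0.306 to 0.363) and 0.807 at 2 dpi. It was at 2.09 and 2.27 at 7 dpi, 1.57 and 1.75 at 21 dpi, and 1.75 and 1.36 in the deleter slices. The order of times was that of Csf1, with every injured slice 2.42 to 6.79 times the level at rest. Only the second WT slice at 21 dpi and the first deleter slice had overlapping intervals.

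Il34 was at 0.205 UMIs per 10000 at rest (336 UMIs, interval 0.184 to 0.229) and 0.169 at 2 dpi. It was at 0.179 and 0.174 at 7 dpi, 0.239 and 0.216 at 21 dpi, and 0.254 and 0.278 in the deleter slices. Its levels spanned 0.822 to 1.35 times that at rest, and the intervals of the slices at 2 and 7 dpi overlapped each other. Both intervals at 7 dpi (0.158 to 0.202 and 0.152 to 0.198) lay below those of the first WT slice at 21 dpi and both deleter slices. The interval of the second deleter slice (0.257 to 0.300) lay above that at rest.

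**Figure D1:**
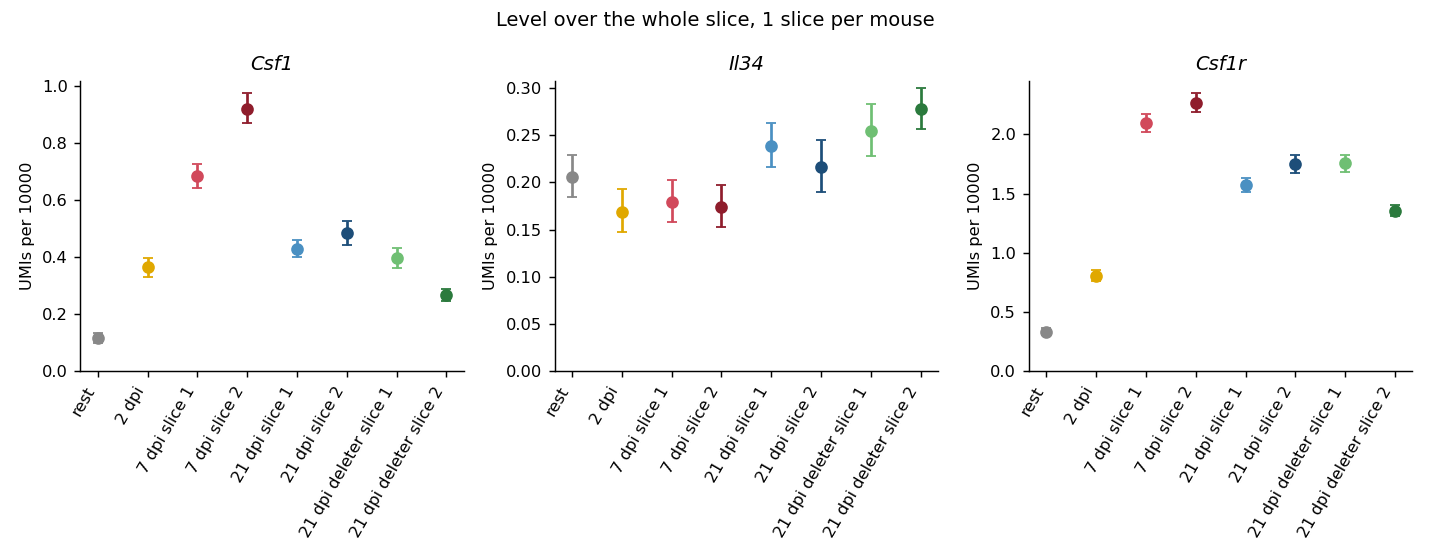
UMIs per 10000 over the whole slice for Csf1, Il34 and Csf1r in each of the 8 slices; points are single slices and bars exact Poisson 95% intervals of the UMI count. Csf1 and Csf1r are lowest at rest (0.116 and 0.334) and highest at 7 dpi, and Il34 stays between 0.169 and 0.278.

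With slices as replicates, the whole-slice differences between 7 and 21 dpi did not pass the test. In edgeR's quasi-likelihood test over 15727 genes, Csf1 was 1.81-fold higher at 7 dpi (log2 fold change 0.86 ± 0.18 SE, 2 slices against 2, adjusted p = 0.202). Csf1r differed by 0.44 ± 0.11 on the log2 scale (adjusted p = 0.254) and Il34 by -0.33 ± 0.14 (adjusted p = 0.424). None of the 3 was called, and 0.0382% of all genes tested were. DESeq2 called Csf1 (log2 fold change 0.85, adjusted p = 0.0115), as did edgeR without the first slice at 7 dpi (1.07, adjusted p = 0.0288). The median log2 fold change was 0.85 over the 8 homeostatic microglia markers and 0.75 over the 10 pan-myeloid markers, against 0.01 over all genes, with 0 markers of either list called. The part of these shifts in the ligand and receptor values was not tested.

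The Csf1 share of all ligand UMIs (Csf1 plus Il34) gave the balance between the ligands without the total of the spot. Visium counts 1 end of each transcript, so this is a share of captured molecules, not scaled by length. It was 36.1% at rest (190 of 526 UMIs, exact binomial 95% interval 32% to 40.4%) and 68.3% at 2 dpi. It was 79.3% and 84.1% at 7 dpi, 64.2% and 69.1% at 21 dpi, and 61% and 49.1% in the deleter slices. Every injured slice lay above rest. The mean was 15 percentage points higher at 7 dpi (81.7% ± 3.44 SD, n = 2) than at 21 dpi (66.7% ± 3.44 SD, n = 2), with p = 0.33 in a two-sided exact permutation test, the smallest p that 2 slices against 2 allow.

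On the spot maps, Csf1 and Csf1r formed patches at and beside fibrotic spots at 7 and 21 dpi, whereas Il34 had none of that form.

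**Figure D2:**
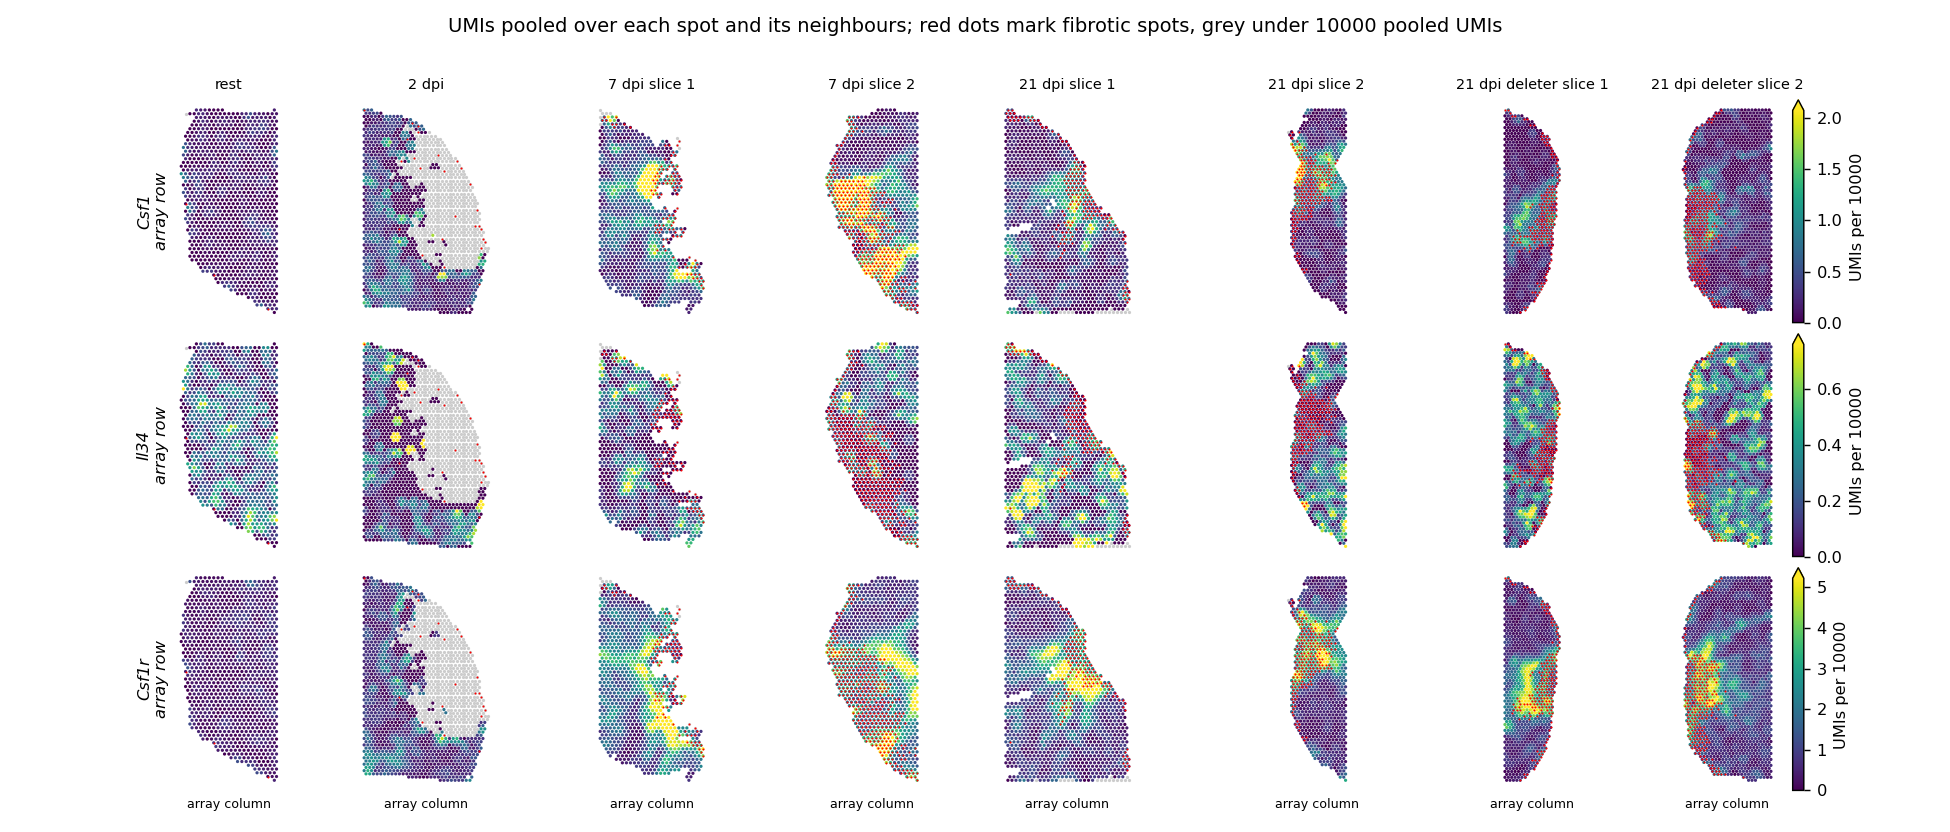
Spot maps of Csf1, Il34 and Csf1r (rows) in the 8 slices (columns), by array row and column; colour is UMIs per 10000 pooled over each spot and its neighbours, red dots mark fibrotic spots, and grey spots have under 10000 pooled UMIs. Patches of high Csf1 and Csf1r lie in or beside the red areas at 7 and 21 dpi, and the large grey area at 2 dpi is the part of that slice with little RNA.

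Csf1 was higher at or beside fibrotic spots than far from them in every slice at 7 and 21 dpi. In the second slice at 7 dpi it was at 1.73 UMIs per 10000 in fibrotic spots, 0.859 at 1 step, 0.560 at 3 to 4 steps and 0.257 at 9 or more. In the first slice at 7 dpi it peaked beside the fibrotic spots, at 1.72 at 2 steps, with 1.35 in fibrotic spots and 0.407 at 9 or more. The WT slices at 21 dpi had 0.912 and 0.852 in fibrotic spots, 0.655 and 1.07 at 1 step, and 0.256 and 0.127 at 9 or more steps. The deleter slices had 0.588 and 0.598 in fibrotic spots, 0.708 and 0.484 at 1 step, and 0.119 and 0.141 at 9 or more. The highest band was thus beside the fibrotic spots in 3 of the 6 slices: the first at 7 dpi, the second WT slice at 21 dpi and the first deleter slice. From its highest to its lowest band, Csf1 changed by 3.56 to 8.44 times in these 6 slices, and the lowest band was always the farthest.

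Csf1r followed a like profile. Its levels differed less between times in fibrotic spots than far from them, but the interaction test of this, given below, did not pass adjustment. In fibrotic spots Csf1r was at 2.999 and 3.007 UMIs per 10000 at 7 dpi, 3.11 and 3.36 at 21 dpi, and 2.92 and 3.01 in the deleter slices. At 9 or more steps it was at 1.499 and 0.910 at 7 dpi, 0.882 and 0.484 at 21 dpi, and 0.449 and 0.690 in the deleter slices. There the Poisson intervals of the second slice at 7 dpi and the first WT slice at 21 dpi overlapped. The first slice at 7 dpi peaked beside fibrotic spots, at 3.82 at 1 step. At 3 to 4 steps Csf1r was still at 2.92 and 2.64 at 7 dpi, against 1.47 and 1.00 in the WT slices at 21 dpi.

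Il34 showed a weaker profile, with no common peak. In fibrotic spots it was at 0.154 and 0.141 UMIs per 10000 at 7 dpi, 0.224 and 0.112 at 21 dpi, and 0.237 and 0.242 in the deleter slices. In distant spots it was at 0.184 and 0.222 at 7 dpi, 0.225 and 0.308 at 21 dpi, and 0.264 and 0.277 in the deleter slices. Distant spots were higher in all 6 slices, but in the first slice at 21 dpi only by 0.2253 against 0.2235.

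**Figure D3:**
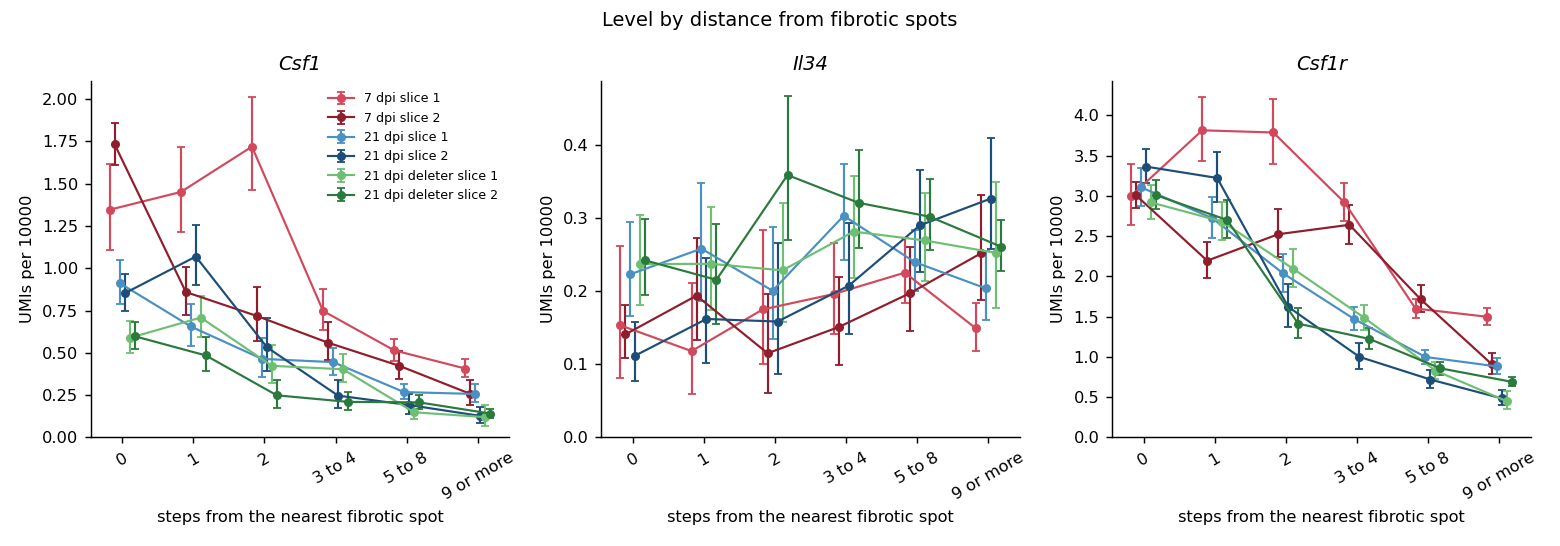
UMIs per 10000 of each gene against array steps from the nearest fibrotic spot (0 is a fibrotic spot) in the 6 slices at 7 and 21 dpi; lines join bands of 1 slice and bars are exact Poisson 95% intervals. Csf1 and Csf1r are lowest in the farthest band of every slice. Csf1 is highest at 1 or 2 steps in the first slice at 7 dpi, the second WT slice at 21 dpi and the first deleter slice. In these slices the Csf1 interval of the highest band overlaps that of the fibrotic spots. Csf1r is highest at 1 step in the first slice at 7 dpi.

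Tested over the 4 WT slices with the slice as a block, Csf1 was 4.22-fold higher in fibrotic than in distant spots (log2 fold change 2.08 ± 0.16 SE, adjusted p = 7.19e-05). Csf1r was 3.09-fold higher (1.63 ± 0.24, adjusted p = 0.000829). Il34 was not called (-0.55 ± 0.26, adjusted p = 0.103). So 2 of the 3 genes were called, in a contrast that called 57.9% of all genes tested, and 8.89% of genes had a larger log2 fold change than Csf1. At 7 dpi alone, where 43.1% of genes were called (5898, but 3613 without the first and 1629 without the second slice at 7 dpi), Csf1 differed by 2.03 (adjusted p = 0.000531) and Csf1r by 1.14 (adjusted p = 0.00276). At 21 dpi alone, where 51.3% were called, Csf1 differed by 2.12 (adjusted p = 0.000256) and Csf1r by 2.12 (adjusted p = 0.000133). Without the second slice at 7 dpi, the Csf1r difference at that time was 1.07 and was not called (adjusted p = 0.0891).

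Whether the fibrotic contrast itself differed between times was tested as an interaction. For Csf1r it was smaller at 7 than at 21 dpi by 0.98 ± 0.26 on the log2 scale, which did not pass adjustment (adjusted p = 0.281, unadjusted p = 0.00696). For Csf1 the difference was -0.08 ± 0.31 (adjusted p = 0.952) and for Il34 0.22 ± 0.52 (adjusted p = 0.915). EdgeR called 0% of genes there, 0 of 13691, with 1537 at an unadjusted p under 0.05, and DESeq2 called 73. Without the first slice at 21 dpi the Csf1r difference was -1.36 (adjusted p = 0.000333), and with no filter on low counts it was -1.02 (adjusted p = 0.00367).

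Adjacent spots were compared with both. Against distant spots, Csf1 was 3.10-fold (log2 fold change 1.63 ± 0.21, adjusted p = 0.00185) and Csf1r 2.62-fold higher (1.39 ± 0.19, adjusted p = 0.00226), with 24.6% of genes called and Il34 not among them (-0.39 ± 0.19, adjusted p = 0.183). Fibrotic against adjacent spots called 38.8% of genes and none of the 3: Csf1 differed by 0.46 ± 0.20 (adjusted p = 0.096), Csf1r by 0.25 ± 0.14 (adjusted p = 0.173) and Il34 by -0.14 ± 0.17 (adjusted p = 0.541). The 4 slices did not share 1 direction. Csf1 was higher in adjacent than in fibrotic spots in the first slice at 7 dpi (1.58 against 1.35 UMIs per 10000, Poisson intervals overlapping). It was about level in the second slice at 21 dpi (0.858 against 0.852). Csf1r was higher in adjacent spots of the first slice at 7 dpi only (3.80 against 2.999). Without that slice, Csf1 differed by 0.69 (adjusted p = 0.00893) and Csf1r by 0.44 (adjusted p = 0.00197), and both were called.

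Between times, Csf1 was the member that differed inside fibrotic spots. It was at 1.35 and 1.73 UMIs per 10000 at 7 dpi and 0.912 and 0.852 at 21 dpi. In the test it was 1.77-fold higher at 7 dpi (log2 fold change 0.82 ± 0.18, adjusted p = 0.0303). Csf1r (-0.11 ± 0.15, adjusted p = 0.795) and Il34 (-0.20 ± 0.36, adjusted p = 0.846) were not called, and 3.9% of genes were. The Csf1 call was lost with DESeq2 (adjusted p = 0.0675), at 10 or more Col1a1 UMIs per 10000 (0.0503), without the second slice at 7 dpi (0.197) and without the second slice at 21 dpi (0.066), with log2 fold changes of 0.63 to 0.84. In distant spots Csf1 differed by 0.91 ± 0.28 (adjusted p = 0.802), Csf1r by 0.89 ± 0.24 (adjusted p = 0.787) and Il34 by -0.40 ± 0.23 (adjusted p = 0.872), where 0.021% of genes were called.

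Markers of several cell types moved with both Csf1 and Csf1r across space, myeloid ones among them. In fibrotic against distant spots, where 57.9% of all genes were called (3936 of 13691 higher and 3990 lower), all 10 pan-myeloid markers rose, with a median log2 fold change of 2.77 against -0.02 over all genes; examples were Cd68 (3.47) and Ptprc (3.41). Of the 8 homeostatic microglia markers 7 rose (median 1.26), among them Cx3cr1 (1.84) and Tmem119 (1.60). All 5 monocyte and neutrophil markers rose (median 4.36), and 4 of the 6 border macrophage markers passed the count filter and rose. The summed pan-myeloid level was 92.4 to 98.3 UMIs per 10000 in fibrotic spots of the 4 WT slices and 6.61 to 24.7 in distant spots. All 6 excitatory neuron markers, Slc17a7 included, fell (median -2.06), as did all 6 inhibitory neuron markers (median -2.06). The part of these markers in the Csf1 and Csf1r differences was not tested.

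Set against the pan-myeloid markers, Csf1r was lower in fibrotic than in distant spots. Per 100 pan-myeloid marker UMIs there were 3.05 and 3.11 Csf1r UMIs in fibrotic spots at 7 dpi and 3.36 and 3.52 at 21 dpi. In distant spots there were 6.24 and 6.94 at 7 dpi and 6.89 and 9.14 at 21 dpi, and at rest there were 9.46 over the whole slice. Fibrotic spots lay below distant spots in every slice. Over whole slices the ratio was 4.16 ± 0.685 (SD, n = 2) at 7 dpi and 4.66 ± 0.137 (SD, n = 2) at 21 dpi, with p = 0.67 in a two-sided exact permutation test.

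Per 100 homeostatic microglia marker UMIs, fibrotic spots were lower than distant spots at 7 dpi but near level at 21 dpi. Over whole slices there were 12.9 Csf1r UMIs at rest, 16.1 at 2 dpi, 14.5 and 15.1 at 7 dpi, 20.8 and 20.7 at 21 dpi, and 22.8 and 24.0 in the deleter slices. Slices at 7 dpi lay below those at 21 dpi (means 14.8 and 20.8, exact permutation p = 0.33, the smallest possible). At 7 dpi there were 11.4 and 15.3 in fibrotic spots against 17.9 and 20.0 in distant spots. At 21 dpi there were 21.5 and 20.2 in fibrotic spots against 21.7 and 19.7 in distant spots, so the second slice was higher in fibrotic spots. The divergence between both ratios was not tested. Microglia markers are known to vary with microglial state, so neither ratio is a level per cell.

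**Figure D4:**
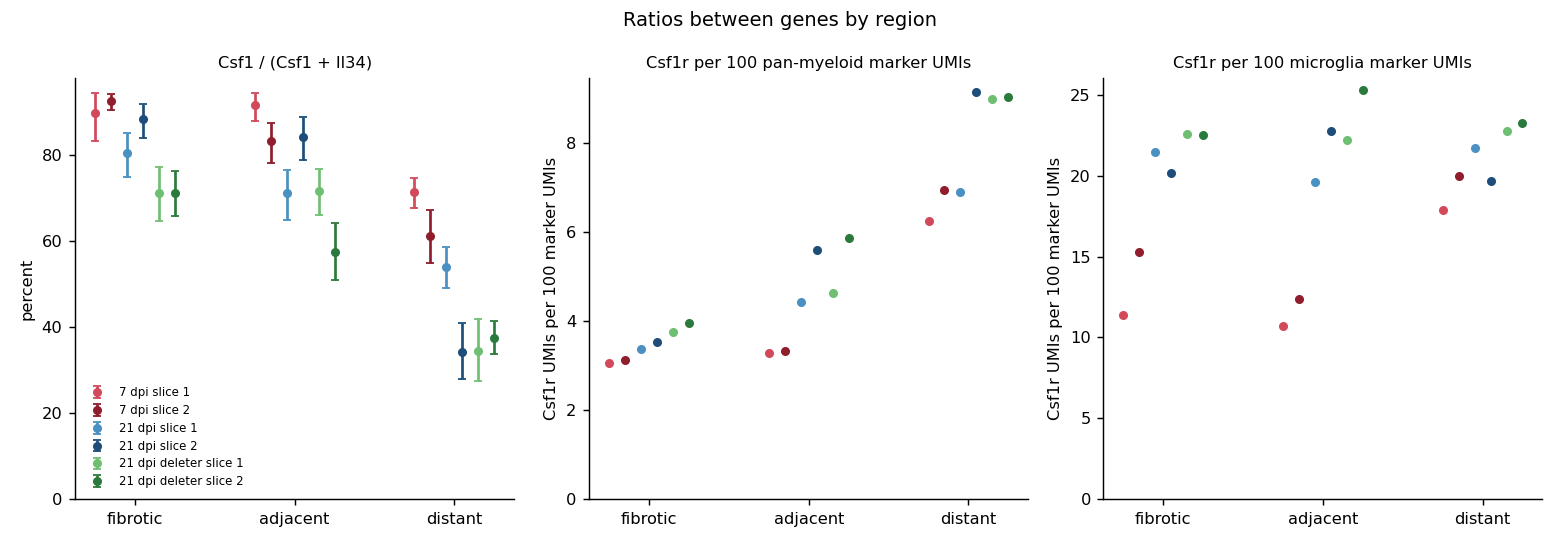
Ratios by region in the 6 slices at 7 and 21 dpi: Csf1 as a percent of Csf1 plus Il34 UMIs (bars are exact binomial 95% intervals), and Csf1r UMIs per 100 pan-myeloid or per 100 homeostatic microglia marker UMIs (no error drawn). Csf1 makes up 71.1% to 92.5% of ligand UMIs in fibrotic spots and 34.1% to 71.3% in distant spots; Csf1r per pan-myeloid UMI is lowest in fibrotic spots among the 3 regions plotted.

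The ligand balance shifted with place as well. In fibrotic spots Csf1 made up 89.8% and 92.5% of ligand UMIs at 7 dpi, 80.3% and 88.4% at 21 dpi, and 71.2% and 71.1% in the deleter slices. In distant spots it made up 71.3% and 61.1% at 7 dpi, 53.8% and 34.1% at 21 dpi, and 34.4% and 37.4% in the deleter slices. Distant spots of the second WT slice at 21 dpi and of both deleter slices were near the 36.1% of the slice at rest, while those at 7 dpi were above it.

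Slc17a7, which encodes the vesicular glutamate transporter of cortical excitatory neurons, separated both ligands. Spots were called Slc17a7-rich at 5 or more UMIs per 10000 and Slc17a7-poor under 2. Il34 was at 0.252 and 0.229 UMIs per 10000 in rich spots at 7 dpi and 0.322 and 0.276 at 21 dpi. In poor spots it was at 0.106 and 0.104 at 7 dpi and 0.174 and 0.110 at 21 dpi. Rich spots were higher in each of the 4 slices, without overlap between both sets. They were also higher in the deleter slices (0.295 and 0.334 against 0.206 and 0.209), at 2 dpi (0.206 against 0.126) and at rest (0.234 against 0.169). At rest, poor spots held 23 Il34 UMIs, and the Poisson intervals overlapped (0.107 to 0.253 and 0.200 to 0.271). In the first deleter slice they just overlapped. At 2 dpi, 152 of the 436 rich spots had 10 or more Slc17a7 UMIs per 10000. Their median depth was 800 UMIs, where a single Slc17a7 UMI meets the rule for rich spots.

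Csf1 ran the other way after injury. It was at 0.379 and 0.334 UMIs per 10000 in rich spots at 7 dpi against 1.02 and 1.54 in poor spots, and at 0.201 and 0.150 against 0.758 and 0.987 at 21 dpi. At rest the values were 0.117 and 0.169. Csf1r was at 1.19 and 1.29 in rich spots at 7 dpi against 3.08 and 3.52 in poor spots, and at 0.745 and 0.714 against 2.63 and 3.41 at 21 dpi. At rest its values were 0.304 and 0.411.

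All 3 genes were called over the 4 WT slices at 7 and 21 dpi with the slice as a block, in a contrast that called 60.9% of genes tested. Il34 was 2.15-fold higher in Slc17a7-rich spots (log2 fold change 1.10 ± 0.14 SE, adjusted p = 0.000493), and 12.5% of genes had a larger value. Csf1 was lower (-2.08 ± 0.20, adjusted p = 0.000153), as was Csf1r (-1.76 ± 0.16, adjusted p = 0.00012). These calls held under each alternative run. Fibrotic spots are poor in Slc17a7, so this contrast and that by distance share spots.

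**Figure D5:**
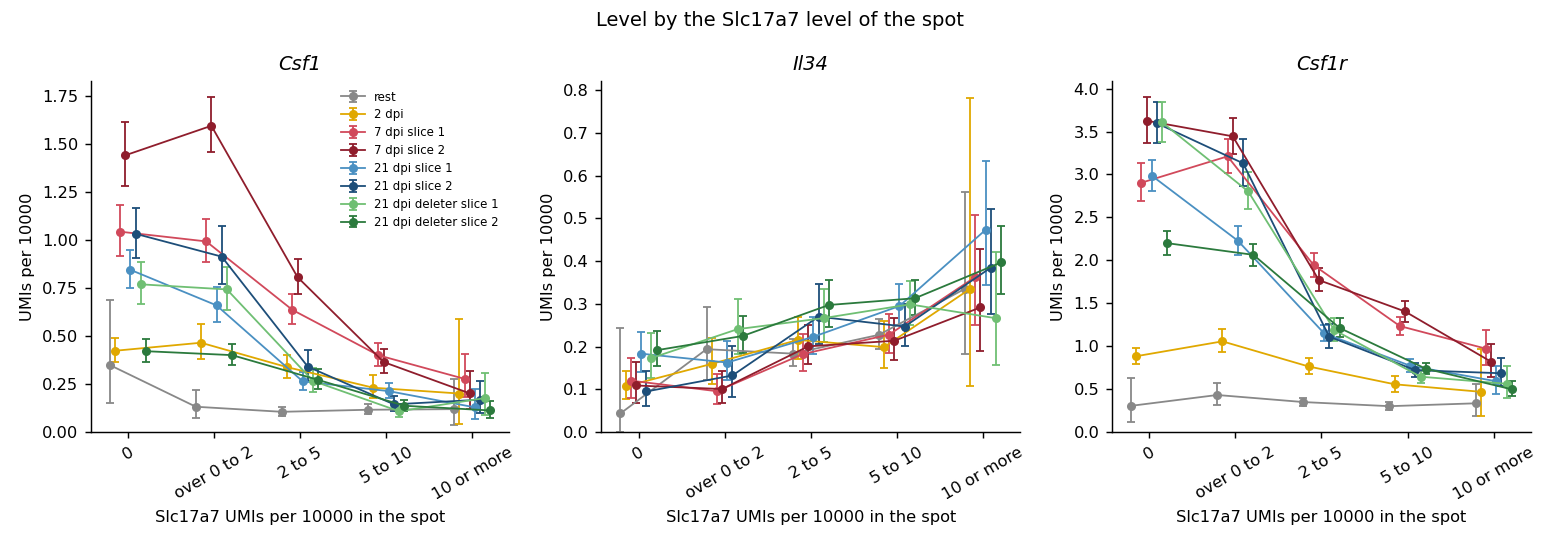
UMIs per 10000 of each gene against the Slc17a7 level of the spot (UMIs per 10000, 5 bins) in the 8 slices; lines join bins of 1 slice and bars are exact Poisson 95% intervals. Il34 is higher to the right in most slices, Csf1 and Csf1r are higher to the left in the slices at 7 and 21 dpi, and the slice at rest is nearly flat for Csf1r.

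Within Slc17a7-rich spots, Csf1 was 2.02-fold higher at 7 than at 21 dpi (log2 fold change 1.01 ± 0.20, adjusted p = 0.0809) and Csf1r 1.69-fold higher (0.76 ± 0.13, adjusted p = 0.056). Neither passed the threshold, nor did Il34 (-0.32 ± 0.17, adjusted p = 0.596), and 0.919% of genes did. In the same spots 8 of the 10 pan-myeloid markers rose, with a median of 1.19. Both Csf1 (1.21, adjusted p = 0.00641) and Csf1r (0.80, adjusted p = 0.00179) were called when the deleter slices were added to those at 21 dpi. With no filter on low counts they were called too (0.98, adjusted p = 0.000205, and 0.73, adjusted p = 0.00131).

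Over single spots the relation with Slc17a7 was weak for Il34, and ranged by slice from near 0 to moderate for Csf1 and Csf1r. Pearson's r of log values within a slice ranged from -0.47 to -0.04 for Csf1, from 0.08 to 0.18 for Il34 and from -0.57 to -0.02 for Csf1r over the 8 slices. Spots of at least 2000 UMIs were also thinned to 2000 UMIs, with shallower spots left out. The ranges were then -0.15 to 0.01, -0.03 to 0.11 and -0.24 to 0.00. At 2 dpi this kept 949 of 1726 spots, so the set of spots changed as well as the depth. Only 4.05% to 17.8% of thinned spots per slice held a Csf1 UMI, 2.95% to 6.11% an Il34 UMI and 7.21% to 34.8% a Csf1r UMI. Most thinned values were therefore 0, which limits how large these correlations can be. Spots of a slice share its library and depth, and no order is read from these values.

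Other genes of the pathway were followed by role in the same contrast, in which 57.9% of all genes were called, 3936 of 13691 as higher. Of the 2 other receptors reported to bind interleukin-34, Sdc1, which encodes the proteoglycan syndecan-1, rose in fibrotic against distant spots (log2 fold change 3.89), whereas Ptprz1, which encodes a receptor phosphatase of glia, differed by -0.33 and was not called. All 6 transcription factors tied to myeloid Csf1r expression rose (median 2.61), among them Runx1 (3.65), Spi1, which encodes PU.1 (2.95), Cebpa (2.62) and Irf8 (2.61). Of the 12 adaptor and signalling genes 11 rose (median 2.42), among them Fgr (3.62), Tyrobp (3.06) and Trem2 (2.80). Pik3r1, a regulatory subunit of phosphoinositide 3-kinase, differed by -0.19 and was not called. The medians of the transcription factors and of the adaptor genes lay below that of the pan-myeloid markers in this contrast. The part of myeloid content in these rises was not tested. Both sheddases that can cut the receptor from the cell surface rose, Adam17 by 2.06 and Adam10 by 0.81.

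Among 9 other colony-stimulating factors and receptors, 7 passed the count filter. Csf2rb (3.80), Csf3r (1.98), Csf2ra (1.97) and the ligand gene Flt3l (1.76) rose, Flt3 fell by 1.98, and Kit (-0.28) and Kitl (-0.01) were not called. Csf2 and Csf3, which encode the granulocyte-macrophage and granulocyte factors, did not pass the filter and had at most 10 and 4 UMIs in any slice. Between 7 and 21 dpi in fibrotic spots, 0 of the tested genes of these 5 lists were called, against 3.9% of all genes.

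The genes whose profile was most like each member were found over 42 sums of slice and distance band in the 7 injured slices. Only the 7368 genes with at least 2708 UMIs were compared, so genes with fewer UMIs could not be named. Closest to Csf1r were C1qa, Trem2, C1qb (r = 0.98 each), Ctss and C1qc (0.97 each), genes of complement component C1q, a microglial lipid receptor and a lysosomal protease. Closest to Csf1 were Bst2 (0.95), Aif1 and Psmb8 (0.94 each), Irf8 and Olfml3 (0.93 each), of which Bst2 and Psmb8 are known interferon-responsive genes and Aif1 and Irf8 are myeloid. Closest to Il34 were Numbl (0.82), Trp53bp1 (0.81), Cpt1c, Gfod1 and Stk25 (0.80 each). On the same sums r was 0.87 between Csf1 and Csf1r, -0.50 between Csf1 and Il34, and -0.25 between Il34 and Csf1r. The sums include the bands at 2 dpi, which are measured from only 26 fibrotic spots. Il34 had 0 UMIs in those fibrotic spots and 2 UMIs at 1 step from them, and the weight of these bands in the values of r was not tested. Bands of 1 slice share a mouse and a library, so these are descriptions.

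WT and deleter slices at 21 dpi did not differ by the test for any of the 3 genes. Over whole slices Csf1 differed by 0.38 ± 0.19 (adjusted p = 0.999), Il34 by -0.30 ± 0.13 (adjusted p = 0.999) and Csf1r by 0.01 ± 0.15 (adjusted p = 0.999), WT over deleter, with 0% of genes called (0 of 15708, 529 at an unadjusted p under 0.05, and 12 by DESeq2). In fibrotic spots Csf1 was at 0.912 and 0.852 UMIs per 10000 in WT and 0.588 and 0.598 in deleter slices. It was not called there (0.56 ± 0.13, unadjusted p = 0.00289, adjusted p = 0.702, where 0.00772% of genes were called). The Poisson intervals of the WT and deleter slices did not overlap, but they cover counting error only. Il34 (-0.56 ± 0.31, adjusted p = 0.738) and Csf1r (0.12 ± 0.11, adjusted p = 0.847) were not called there either. Each genotype lay on its own capture area, so genotype and area cannot be told apart. The deleter slices were of mixed sex, the first with 1033 Xist and 6 Ddx3y UMIs and the second with 19 and 1323, whereas both WT slices at 21 dpi had Y-linked transcripts; the part of sex was not tested.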

How the data were processed

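Visium libraries of 8 mouse brain slices were analysed. The authors aligned reads to mm10 with Space Ranger 2.0.0 and deposited UMI counts for each spot and gene, not normalized, and spot positions (other numbers). Spots over tissue were joined into connected pieces, 2 per capture area, each taken as 1 slice. The labels do not say which piece of the first area was at rest; the smaller was taken, by its outline in the published map, not by expression. Slice numbers carry no meaning.

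Levels are UMIs per 10000. Sums per slice and region were tested with edgeR 4.0.16 (TMM, filterByExpr, quasi-likelihood F test, Benjamini-Hochberg, threshold 0.05), with the slice as a block between regions; SE is the absolute log2 fold change over the root of the F statistic. DESeq2 1.42.0 was an alternative. The edgeR step was run on simulated data for whole slices between times and for fibrotic against distant spots only. The simulation held no difference between slices, so it does not test the use of the slice as a block. Spots are not replicates. No doublet caller or deconvolution was run. Precision rests on 11332780 to 23677298 UMIs per slice; 4 spots had no UMIs.

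Named genes were the 3 members, up to 4 per list by size of called change (some list genes are not reported here by name), and the 5 most like each member (Pearson's r of log2 (UMIs per 10000 + 0.1) over bands of at least 10 spots). The members, 16 gene lists (96 genes) and tests were chosen with earlier results of these data known. All 4 areas use the same array design, so they share barcodes without sharing cells. Promoters of the other 2 genes were not used here.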

Additional observations from a re-analysis of the deposited data

How the results depend on the processing

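Over 13 contrasts of 3 genes, 243 of 258 other settings and 140 of 156 fits without 1 slice kept the direction and the side of the threshold. Values that changed were as follows; the cause was not tested. DESeq2 gave Csf1 0.85 (whole slices, 7 against 21 dpi) and 0.82 (fibrotic spots, 7 against 21 dpi), and Csf1r 0.75 (Slc17a7-rich spots, adjusted p = 0.0412). No filter on low counts gave Il34 -0.64 in fibrotic against distant spots (adjusted p = 0.049) and -0.72 at 21 dpi alone, Csf1r -1.02 in the interaction, Csf1 0.45 in fibrotic against adjacent spots, and Csf1 0.98 and Csf1r 0.73 in Slc17a7-rich spots. Adding deleter slices gave Csf1 0.42 and Csf1r 0.29 in fibrotic against adjacent spots, Csf1 1.21 and Csf1r 0.80 in Slc17a7-rich spots, and a Csf1 share 20.8 points higher at 7 dpi. At 10 or more Col1a1 UMIs per 10000, Csf1 was 0.84 in fibrotic spots and 0.13 in the interaction, the opposite sign. Microglia in place of pan-myeloid markers gave -5.96 per 100. Thinning gave mean correlations with Slc17a7 of -0.08 (Csf1) and 0.02 (Il34).

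Fits without 1 slice leave a time or genotype with a lone slice, which is assumed to vary like the others. Their ranges were, for Csf1, 0.61 to 1.07 (whole slices), 0.63 to 0.95 (fibrotic spots between times), -0.45 to 0.25 (interaction) and 0.20 to 0.69 (fibrotic against adjacent); for Il34, -0.64 to 0.36 (fibrotic spots between times), -1.44 to 0.12 (fibrotic against distant, 21 dpi), -0.55 to 0.99 (interaction) and -0.19 to 0.02 (fibrotic against adjacent). For Csf1r they were 1.07 to 1.21 (fibrotic against distant, 7 dpi), -1.36 to -0.67 (interaction), 0.20 to 0.44 (fibrotic against adjacent) and -0.16 to 0.20 (WT against deleter). In fibrotic against distant spots at 21 dpi, Il34 was called without the first slice at 21 dpi (-1.44, adjusted p = 0.00287) and in no other fit without 1 slice.

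Counts of called genes between 7 and 21 dpi moved from 6 to 398 with DESeq2, 267 with no filter, 400 with deleter slices and 39 to 335 without either slice at 7 dpi (whole slices), from 503 to 304, 1123 and 1019 (fibrotic spots; 236 to 863 without 1 slice), from 3 to 44 and 132 (distant spots) and from 125 to 730 and 476 (Slc17a7-rich spots; 1 at 10 or more Slc17a7 UMIs per 10000). The interaction moved from 0 to 610 with no filter, 9 at 10 or more Col1a1 UMIs, 24 with distant spots from 3 steps, and 1045 and 329 without the first and second slice at 21 dpi. Adjacent against distant spots moved from 3259 to 5186 with deleter slices, and to 1547 and 1725 without the first and second slice at 7 dpi. Fibrotic against adjacent spots moved from 4960 to 3126, 3164 and 3292 without the second slice at 7 dpi and the first and second at 21 dpi, and Slc17a7-rich spots between times to 46, 66 and 26 without the first at 7 dpi and the first and second at 21 dpi. WT against deleter moved from 0 to 40 (whole slices) and from 1 to 270 (fibrotic spots) with no filter, and in fibrotic spots to 155 and 18 without the first and second WT slice. Regions were paired within a slice, with the slice as the block. Between times and genotypes no pairing was possible, because each slice came from a different mouse. Depth limits Il34 (221 to 657 UMIs per slice) and Csf1 (190 at rest) most.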

Other observations

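The slice at 2 dpi held an area with little RNA, so its spots were split by depth and by distance from spots under 1000 UMIs, both chosen after the data were seen. In spots of 1000 to 5000 UMIs, Csf1 was at 0.297 UMIs per 10000 (39 UMIs), in spots of 5000 to 15000 at 0.486 (182 UMIs) and in spots of 15000 or more at 0.321 (250 UMIs). The same classes at rest were at 0.342 (4 UMIs, exact Poisson 95% interval 0.0932 to 0.876), 0.145 (61 UMIs) and 0.104 (125 UMIs), so 2 dpi was higher in both deeper classes and not in the shallow one. Csf1r at 2 dpi was at 0.914, 0.849 and 0.775 in these classes, and Il34 at 0.145, 0.166 and 0.177. At 2 steps from the spots under 1000 UMIs, Csf1 was at 0.599 (32 UMIs, exact Poisson 95% interval 0.410 to 0.846), against 0.221 at 1 step, 0.277 at 3 to 4, 0.373 at 5 to 8 and 0.386 at 9 or more. Csf1r was at 1.09 at that distance and 0.643 at 3 to 4 steps, and the pan-myeloid markers at 20.2 and 15.3. This is 1 slice, and no test was run.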
